A study of Homo sapiens with 16 samples.

Results

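The MYC and PVT1 locus lies on the long arm of chromosome 8, at 8q24. It was taken here as the stretch of genome within 1 Mb of the MYC start site on either side, and its members were the peaks of HIF-1α and HIF-2α whose centres fell in that window. There were 30 such peaks among the 23398 of the series, and merging those that overlapped by at least 1 bp gave 15 sites among 11664. The start site was that of the canonical MYC transcript in the gene annotation GENCODE release 44 on build GRCh37, at base 128748477 of chromosome 8. The window was fixed by position alone, so neither the number of peaks in it nor their scores decided which peaks were counted.

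The study examined HIF binding with ChIP-seq (chromatin immunoprecipitation and sequencing), in which DNA attached to a protein is recovered with an antibody and the stretches where it accumulates are called as peaks. The libraries used here came from 4 human cancer cell lines, namely A549 from lung, HCT116 from colon, PC3 from prostate and T47D from breast. All cells were kept in 0.5% oxygen for 16 h, so that the lists hold no normoxic control. Chromatin was precipitated with rabbit polyclonal serum against HIF-1α (PM14) or HIF-2α (PM9), which gave 8 groups, each a cell line with 1 isoform, of 2 replicates each. Each group is 1 established line, the methods call replicates independent without saying that they were separate cultures, and p-values therefore measure the spread between these libraries.

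HIF is the transcription factor through which cells respond to low oxygen. It pairs an oxygen-regulated α subunit, HIF-1α or HIF-2α, with HIF-1β and recognises the core motif RCGTG (R is A or G), the hypoxia response element. MYC encodes a transcription factor that drives growth and metabolism and is among the most often amplified oncogenes. PVT1, its neighbour downstream, is a long noncoding RNA gene that is frequently amplified together with MYC, and its introns hold enhancers that can contact the MYC promoter. HIF-1α and HIF-2α have been described as acting on MYC activity in opposite ways. The lists analysed here measure binding and no RNA, and the copy number of the locus in the 4 lines was not measured.

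HIF peaks around MYC were mostly within PVT1. Of the 30 peaks, 22 (73.3%) had their centres in the PVT1 gene record, chr8:128806772-129199347 on the plus strand, which covers 19.6% of the window. This counts a site once for each library that held it, and 1 site alone gave 7 of these peaks. By merged site, 8 of the 15 were in PVT1. The record of MYC itself, chr8:128747680-128755197 on the same strand, lay under 1 site, found in PC3 cells alone. HCT116 cells, with the longest HIF-1α lists of the series, had 1 peak in the window and none in PVT1. Of the 15 sites, 5 were found in both replicates of at least 1 group, all of them in PVT1, and the count was 3 when either A549 HIF-2α library was left out.

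**Figure D1:**
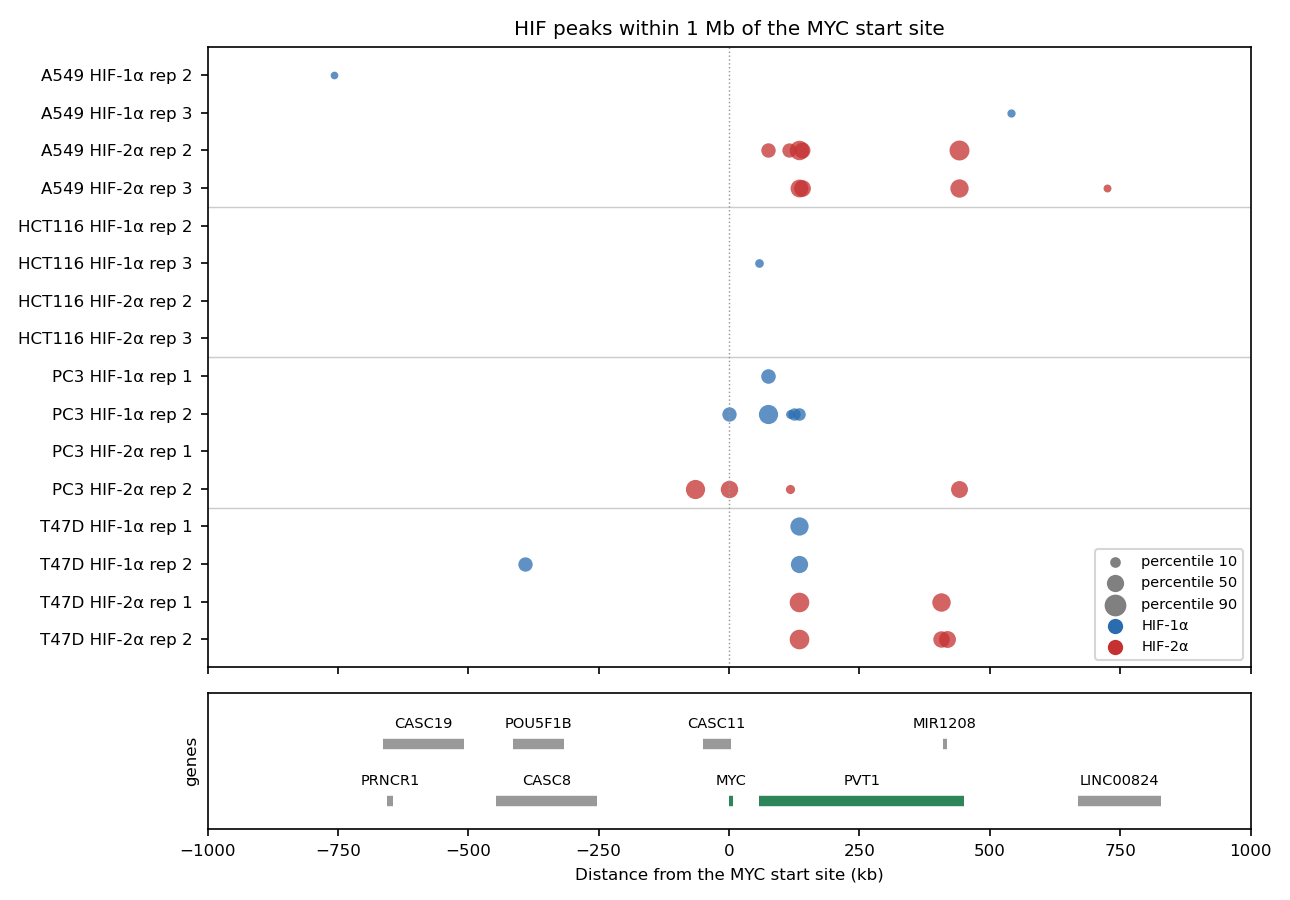
Peaks within 1 Mb of the MYC start site in each of the 16 libraries, placed by the distance of the peak centre from that start in kb (positive is downstream). The area of a point grows with the score percentile of the peak in its library, blue is HIF-1α, red is HIF-2α, and the lower panel gives the extents of annotated genes. Points gather to the right of MYC over PVT1, and HCT116 has 1 point in its 4 rows.

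Peaks were compared between libraries by score percentile, the rank of a peak's score among all peaks of its own list, with 100 for the best. The score is the peak caller's own. Its scale is not given in the sources used here, but its lowest value was at or just above 50 in each list. Lists held 275 to 4505 peaks. The shortest was PC3 HIF-2α replicate 1 with 275 peaks, against 1290 in its partner. Results are given both ways where the call, or the order of the PC3 isoforms, changes without it. Read totals are not in the lists, so sequencing depth is unknown, and a site with no peak in a library is not shown to be unbound there.

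The site in the most libraries was within intron 2 of canonical PVT1, 134.7 kb downstream of the MYC start, at chr8:128881779-128883988. It was found in 7 libraries from 3 cell lines, and in both replicates of A549 HIF-2α, T47D HIF-1α and T47D HIF-2α. In A549 the HIF-2α replicates placed it at percentiles 88.4 and 72.7, and neither HIF-1α library had a peak there. In T47D it stood at 76.6 and 67.5 with HIF-1α, and at 89.4 and 89.9 with HIF-2α. The T47D libraries of both isoforms thus held it, at higher percentiles with HIF-2α. Replicated T47D sites of the whole series also ranked higher with HIF-2α, with a median of 77.8 against 69.2 with HIF-1α. How many other sites differed in this way was not counted. PC3 HIF-1α replicate 2 had a weaker peak, at 31.4, and the other 3 PC3 libraries had none. HCT116 had no peak at this site in any of its 4 libraries. The 7 peak centres lay within 355 bp of each other.

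The level of this intron 2 site differed by 20.6 percentile points between isoforms, HIF-2α being higher, averaged over the 4 lines with a missing peak set to 0. That difference did not pass an exact permutation test of isoform labels within cell lines (two-sided p = 0.167, adjusted p = 0.225 over all 1421 sites with a peak in at least 4 libraries). It was the only site of the locus in enough libraries to be tested, so 0 of 1 was called, where 10.9% of the 1421 sites passed. Among those 155 sites HIF-1α was higher at 154 and HIF-2α at 1. The median difference of all tested sites was −23.9 points, with HIF-1α higher, in lists that held 16383 HIF-1α and 7015 HIF-2α peaks. The number of calls ran from 94 to 295 without 1 library and was 0 by presence or absence of a peak, with the replicate block or among sites in at least 2 libraries, and the PVT1 site was not called under any of these. At an unadjusted p under 0.05 there were 471 sites, and the PVT1 site was not among them.

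A second strong site was near the 3′ end of PVT1, in intron 10, 440.5 kb from the MYC start at chr8:129187681-129189995. It was the best-ranked peak of the locus in A549 HIF-2α, at 92.8 in replicate 2 and 77.1 in replicate 3. PC3 HIF-2α replicate 2 also held it, at 64.3. No HIF-1α library of any line had a peak there, so it was called with HIF-2α only, in 3 libraries of 2 lines. Sites called with HIF-2α only made up 40% of the locus and 25.2% of the series. The A549 HIF-1α lists held 382 and 629 peaks, against 1382 and 1056 with HIF-2α.

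A549 had a further HIF-2α site in both replicates, in intron 2 at 140.7 kb (chr8:128888528-128889785), with percentiles of 56.3 and 63.4. Its 2 peak centres were 28.5 bp apart, and no other library had a peak there. T47D had a HIF-2α site of its own in intron 6, at 405.8 kb (chr8:129153961-129154622), with percentiles of 78.3 and 60.3. The nearest annotated start to it was that of MIR1208 downstream, a microRNA gene inside PVT1.

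PC3 had 1 site in both replicates of a group, and that was with HIF-1α. It was in intron 2 of PVT1 at 73.9 kb (chr8:128821196-128823463), with percentiles of 45.6 in replicate 1 and 85.8 in replicate 2. A549 HIF-2α replicate 2 also held it, at 44.5. The PC3 values spread more widely between replicates than those of the other 4 replicated sites, and the lists behind them held 1517 and 3413 peaks.

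Of these 5 sites, 2 ranked above the median replicated site of each group that replicated them, and 3 ranked below that of theirs. Over all sites in both replicates, the median percentile was 67.3 in A549 HIF-2α, 77.8 in T47D HIF-2α, 69.2 in T47D HIF-1α and 73.3 in PC3 HIF-1α. The intron 2 site at 134.7 kb had a group mean of 80.6 ± 11.1 (SD, n = 2) in A549 HIF-2α, and 89.6 ± 0.351 (SD, n = 2) in T47D HIF-2α. In T47D HIF-1α it had 72.1 ± 6.43 (SD, n = 2). The intron 10 site had 85.0 ± 11.1 (SD, n = 2) in A549 HIF-2α. Both were above the median of these groups. The 140.7 kb site was at 59.8 ± 4.99 (SD, n = 2) in A549 HIF-2α. The 405.8 kb site was at 69.3 ± 12.7 (SD, n = 2) in T47D HIF-2α, and the 73.9 kb site at 65.7 ± 28.5 (SD, n = 2) in PC3 HIF-1α. Each of these 3 was below the median of its group.

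**Figure D2:**
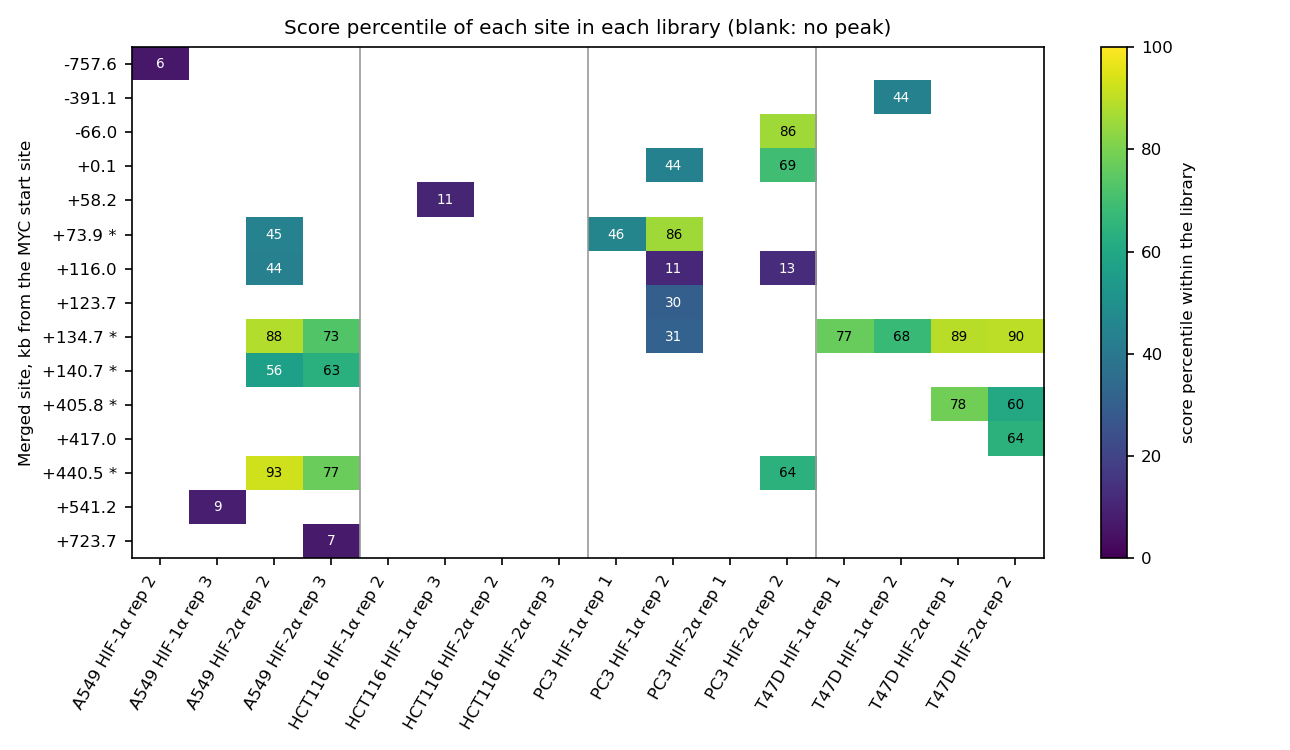
Score percentile of each of the 15 merged sites (rows, by distance from the MYC start site in kb) in each of the 16 libraries (columns), with blank cells where the library had no peak and an asterisk at the 5 sites found in both replicates of a group. The row at 134.7 kb holds 7 values, from 31.4 to 89.9, and the 4 HCT116 columns hold 1 value, 10.5.

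At the start sites of the members, peaks were found in single replicates. The site over the MYC start, chr8:128746730-128751628, overlapped the start of MYC and the gene record of CASC11, a long noncoding RNA gene on the opposite strand. It was found in replicate 2 of PC3 with HIF-1α, at percentile 43.8, and in replicate 2 of PC3 with HIF-2α, at 69.1. The first replicate of neither isoform had a peak there, nor did any library of the other 3 lines. The peak of the HIF-2α library was 4899 bp long, where the median peak of that library was 1315.5 bp.

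At the first start of PVT1, 58.2 kb from MYC, there was 1 peak, in HCT116 HIF-1α replicate 3, at percentile 10.5. It was the only HCT116 peak of the locus, and replicate 2 of the same group had none. PVT1 has many annotated start sites, and 2 more sites covered internal ones. One, at 116.0 kb, was found in A549 HIF-2α replicate 2, PC3 HIF-1α replicate 2 and PC3 HIF-2α replicate 2, with percentiles of 43.6, 11.1 and 12.6. The other, at 123.7 kb, was found in PC3 HIF-1α replicate 2, at 30.2. No start of MYC or PVT1 was thus covered by a site in both replicates of any group. The background was counted by another rule, a replicated site of any line with its centre within 10 kb of a start. By that rule 15.3% of protein-coding genes had a HIF-1α site and 2.55% a HIF-2α site, so having none was the common state. MYC had none by it, and nor had PVT1, a noncoding gene outside that background.

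The remaining 6 sites were each in 1 library, and their percentiles ran from 6.28 to 85.7. Of them, 3 were upstream of MYC, 1 was in PVT1 and 2 lay beyond its 3′ end. The peaks of all 8 sites in 1 library had a median percentile of 20.4, against 72.7 for the 17 peaks of the 5 replicated sites. Sites in 1 library made up 53.3% of the locus and 59.5% of the series, and sites in both replicates of a group made up 33.3% of the locus and 31.7% of the series.

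The noncoding genes upstream of MYC, at which several cancer-associated transcripts have been described, held few peaks and no replicated site. PCAT1, whose annotated record is 862728 bp long and starts outside the window, held 2 sites of the locus, and CASC8 held 1 of these as well. The latter, found in T47D HIF-1α replicate 2 at 43.9, also lay within the record of POU5F1B, the only other protein-coding gene that starts in the window. CCAT2, PRNCR1 and CASC19 held none. Downstream, LINC00824 held 1 site, in A549 HIF-2α replicate 3 at 7.20. CCDC26, which starts outside the window, held 5 sites of the series, of which 0 were in both replicates of a group. CCAT1, CASC21 and TMEM75 were not matched by symbol and are not analysed here.

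By isoform, 12 of the 16383 HIF-1α peaks and 18 of the 7015 HIF-2α peaks fell in the window. In A549, HIF-1α had 1 of 382 peaks in replicate 2 and 1 of 629 in replicate 3, while HIF-2α had 5 of 1382 and 4 of 1056. In T47D, HIF-1α had 1 of 761 and 2 of 711, and HIF-2α had 2 of 423 and 3 of 424. In these 2 lines each HIF-2α library held a larger share of its peaks in the window than either HIF-1α library of the same line. The counts are small, and the exact 95% intervals of these shares overlapped. They were 0.00663 to 1.45% in A549 HIF-1α replicate 2 and 0.118 to 0.842% in A549 HIF-2α replicate 2. In T47D they were 0.00333 to 0.730% in HIF-1α replicate 1 and 0.146 to 2.05% in HIF-2α replicate 2. How many other gene windows separated the isoforms in this way was not counted. In PC3, HIF-1α had 1 of 1517 and 5 of 3413, and HIF-2α had 0 of 275 and 4 of 1290. Here the isoforms overlapped, and the 0 of the short list allows a share of up to 1.09%. In HCT116, HIF-1α had 0 of 4505 and 1 of 4465, and HIF-2α had 0 of 1264 and 0 of 901. The 3 empty HCT116 lists allow shares of up to 0.0666%, 0.237% and 0.333%, limits that cover counting error only.

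The mean share of peaks in the window was 0.134% for HIF-1α and 0.279% for HIF-2α, a difference of 0.145 percentage points, with HIF-2α higher in 3 of 4 lines. The exact permutation test of isoform labels within lines gave p = 0.0463 (two-sided, smallest possible 0.00154), and the value adjusted over the 5 tests of the locus was 0.0772, so the difference did not pass. Leaving out PC3 HIF-2α replicate 1 raised the difference to 0.184 points and brought its adjusted p from the exact permutation test to 0.0309, past the threshold of 0.05. The difference also passed when each list was cut to its 275 best peaks (0.318 points, adjusted p = 0.0347) or to scores at or above the median of all peaks, 74.55 (0.486 points, adjusted p = 0.0463), by the same exact permutation test. It was 0.0658 points without T47D (exact permutation p = 0.278, adjusted p = 0.463) and 0.107 points without PC3 HIF-2α replicate 2 (adjusted p = 0.262). With 1 value per line and isoform the exact permutation p was 0.25, where the smallest possible over 4 lines is 0.125.

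Within the PVT1 gene record, A549 had 5 and 3 peaks with HIF-2α and 0 in each library with HIF-1α, which allows shares of up to 0.785% and 0.477%. T47D had 2 and 3 with HIF-2α, and 1 in each library with HIF-1α. PC3 had 1 and 4 with HIF-1α, and 0 and 2 with HIF-2α, and HCT116 had 0 in each of its 4 libraries. HIF-2α peaks in PVT1 thus came from A549 and T47D above all. The mean share was 0.0569% for HIF-1α and 0.248% for HIF-2α, a difference of 0.191 points (exact permutation p = 0.0370, adjusted p = 0.0772), with HIF-2α higher in 2 of 4 lines. In PC3 the mean was 0.0916% with HIF-1α and 0.0775% with HIF-2α, but HIF-2α replicate 2 alone stood at 0.155%, so the order there depended on the short list. Without PC3 HIF-2α replicate 1 the difference over all lines was 0.210 points with an adjusted p of 0.0309 by the exact permutation test, and with scores at or above the median of all peaks it was 0.442 points (adjusted p = 0.0463). It did not pass with equal-length lists (0.273 points, adjusted p = 0.0556), without T47D (0.103 points, adjusted p = 0.463) or without A549 (0.147 points, adjusted p = 0.370), all by the exact permutation test.

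The number of peaks and the best rank did not pass the test between isoforms on the full lists. The number in the window averaged 1.5 per library for HIF-1α and 2.25 for HIF-2α (exact permutation p = 0.454, adjusted p = 0.454). In PC3 it averaged 3 with HIF-1α and 2 with HIF-2α, which had 0 in the short replicate 1 and 4 in replicate 2. The best percentile in the window averaged 37.6 and 54.3, with a missing peak set to 0 (exact permutation p = 0.273, adjusted p = 0.341). A549 had the widest gap in this measure, from 7.43 ± 1.63 (SD, n = 2) with HIF-1α to 85.0 ± 11.1 (SD, n = 2) with HIF-2α, whereas in PC3 HIF-1α had 65.7 ± 28.5 (SD, n = 2) and HIF-2α had 0 in the short replicate 1 and 85.7 in replicate 2, so that the order of the PC3 isoforms depended on the short list. Without it the overall difference rose from 16.7 to 27.4 points (adjusted p = 0.0694, exact permutation). With equal-length lists both measures passed, at 0.875 peaks and 28.2 points (adjusted p = 0.0347 each, exact permutation). On the full lists both differences turned to HIF-1α higher when A549 was left out, to −0.167 peaks and −3.53 points.

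**Figure D3:**
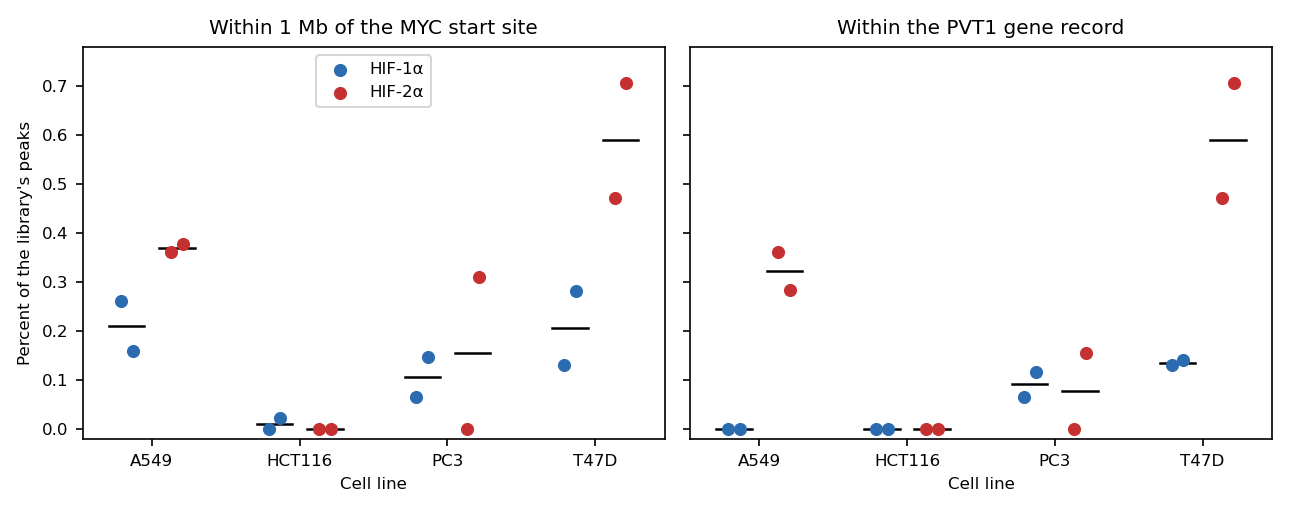
Percent of each library's peaks with a centre within 1 Mb of the MYC start site (left) and within the PVT1 gene record (right), by cell line. Each point is 1 library, blue for HIF-1α and red for HIF-2α, and each bar is the mean of 2 replicates. In T47D the HIF-2α mean is 0.590%, against 0.206% for HIF-1α, and in HCT116 3 of 4 points are at 0.

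Cell lines differed in the share of peaks near MYC. Averaged over isoforms it was 0.398% in T47D, 0.290% in A549, 0.131% in PC3 and 0.00560% in HCT116. The variance between lines passed a one-sided exact permutation test of line labels within isoforms (p = 0.000737, adjusted p = 0.00368). Neighbours in that order were not tested against each other. T47D HIF-2α replicates were at 0.590 ± 0.166% (SD, n = 2) and A549 HIF-2α at 0.370 ± 0.0120% (SD, n = 2).

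The lines were not told apart by the number of peaks as they were by the share. The mean number per library was 2.75 in A549, 2.5 in PC3, 2 in T47D and 0.25 in HCT116, and its variance did not pass the same exact permutation test (p = 0.222, adjusted p = 0.341), which was added after the data were seen. T47D had 2319 peaks in all and HCT116 had 11135, so the lengths of the lists moved with the shares. With each list cut to its 275 best peaks, the variance of the share still passed (adjusted p = 0.0204, exact permutation). The call on the share also rested on single libraries and on 1 line. Its adjusted p from the exact permutation test was 0.0926 without A549 HIF-2α replicate 2 or without replicate 3, 0.0503 without T47D HIF-1α replicate 2, and 0.0772 without HCT116.

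Set beside other genes, the MYC window was richer in HIF-2α sites in A549 and T47D than most. It held 3 A549 HIF-2α sites in both replicates, where 44.3% of 20163 protein-coding genes had at least 1 within 1 Mb and 10.0% had 3 or more. It held 2 T47D HIF-2α sites, where 17.1% of genes had at least 1 and 2.67% had 2 or more. With PC3 HIF-1α it held 1, where 62.0% of genes had at least 1, and with T47D HIF-1α it held 1, where 39.5% of genes had at least 1. These single sites were near what a gene in these lists has.

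In 4 groups no replicated site was found around MYC. For A549 HIF-1α, 25.1% of genes had at least 1, for HCT116 HIF-2α 30.3% and for PC3 HIF-2α 15.9%, so an empty window was the common state. For HCT116 HIF-1α, 82.5% of genes had at least 1, and MYC was among the 17.5% with none. In single HCT116 HIF-1α lists the median gene had 4 peaks within 1 Mb, and MYC had 0 and 1. The MYC window is sparse in genes, with 2 protein-coding starts against a median of 23, and 1.01% of genes had as few.

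**Figure D4:**
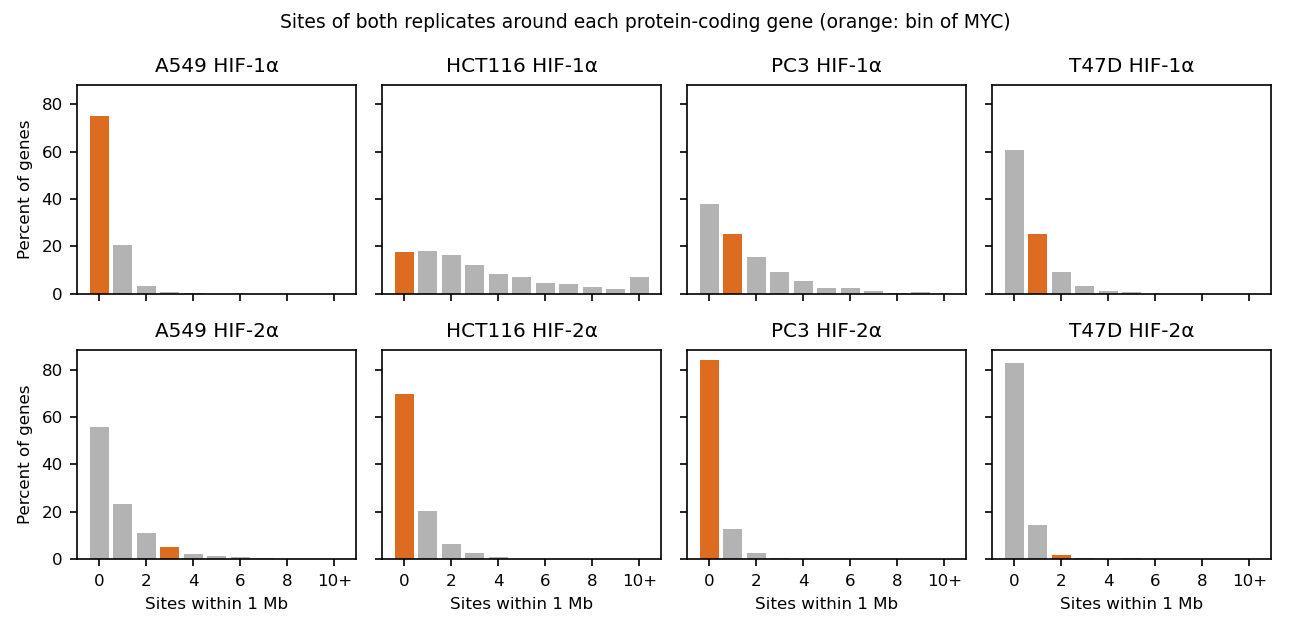
Percent of the 20163 protein-coding genes (vertical axis) by the number of sites of both replicates within 1 Mb of their start (horizontal axis, 10 or more pooled), in each of the 8 groups. The orange bar is the bin that holds MYC, which is 3 in A549 HIF-2α, 2 in T47D HIF-2α, 1 in PC3 HIF-1α and T47D HIF-1α, and 0 in the other 4 groups.

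The HIF core motif was at the centre of a minority of the sites. RCGTG, searched on both strands as ACGTG or GCGTG, was in the central 200 bp of 5 of the 15 sites (33.3%), against 52.2% of all 11664 sites and 75.2% of the 1421 in at least 4 libraries. In the central 1000 bp it was in 12 (80%), against 89.5% and 98.2%. Only 1 of the 15 sites was itself in at least 4 libraries, so the 1421 are an unlike set. These shares are a description of sequence with no test, and a match is not a measured binding site.

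The replicated sites differed among themselves in this motif. The intron 2 site at 134.7 kb had ACGTG 17 bp from its centre, and was the only site of the locus with ACGTG in its central 200 bp. The A549 site at 140.7 kb had 2 copies of GCGTG in its central 200 bp and 4 in its central 1000 bp, and the T47D site at 405.8 kb had 1 copy, 28 bp from its centre. The PC3 site at 73.9 kb had none in the central 200 bp and 1 copy of each form in the central 1000 bp. The intron 10 site at 440.5 kb had no RCGTG anywhere in its 2315 bp. It had 1 copy of TGAGTCA, the recognition motif of AP-1, 259 bp from its centre. TGAGTCA was in the central 200 bp of 3 of the 15 sites (20%), against 7.58% of all sites. None of these 3 sites was in both replicates of a group. The E-box CACGTG, the motif bound by MYC with MAX and one that contains ACGTG, was in the central 200 bp of 0 of the 15, against 6.34%.

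Other genes of the MYC network, whose proteins form dimers with MAX or with the related MLX, were searched for sites at their starts. Of 13 genes, 5 had a HIF-1α site of both replicates within 10 kb of a start site in at least 1 line, beside the 15.3% of all protein-coding genes. With HIF-2α 1 of 13 had one, beside 2.55% of genes. MYC had neither, and nor had MYCN, MXD1, MXD3, MXD4, MLX, MLXIP or MLXIPL.

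MXI1, which encodes a partner of MAX that opposes MYC, was bound in the most groups. Its leading site, chr10:111966795-111971243, was found in 15 of 16 libraries, at percentiles from 12.4 to 98.0, and in both replicates of 7 of the 8 groups, the exception being PC3 HIF-2α. MAX, the obligate partner of MYC, and MNT, another MAX partner that opposes MYC, had HIF-1α sites in HCT116 and PC3. MYCL, a paralogue of MYC, had one in HCT116, and MGA, a further MAX partner, had one in PC3. HCT116 had replicated HIF-1α sites within 10 kb of a start at MYCL, MAX, MXI1 and MNT. HCT116 HIF-1α had 2499 replicated sites in the series, the most of any group. The share of all genes with an HCT116 HIF-1α site within 10 kb of a start was not counted. Over the libraries that held them, the leading sites ranged in percentile from 77.5 to 93.9 at MYCL and 5.54 to 74.8 at MAX. They ranged from 11.49 to 90.3 at MNT and 5.80 to 80.9 at MGA.

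**Figure D5:**
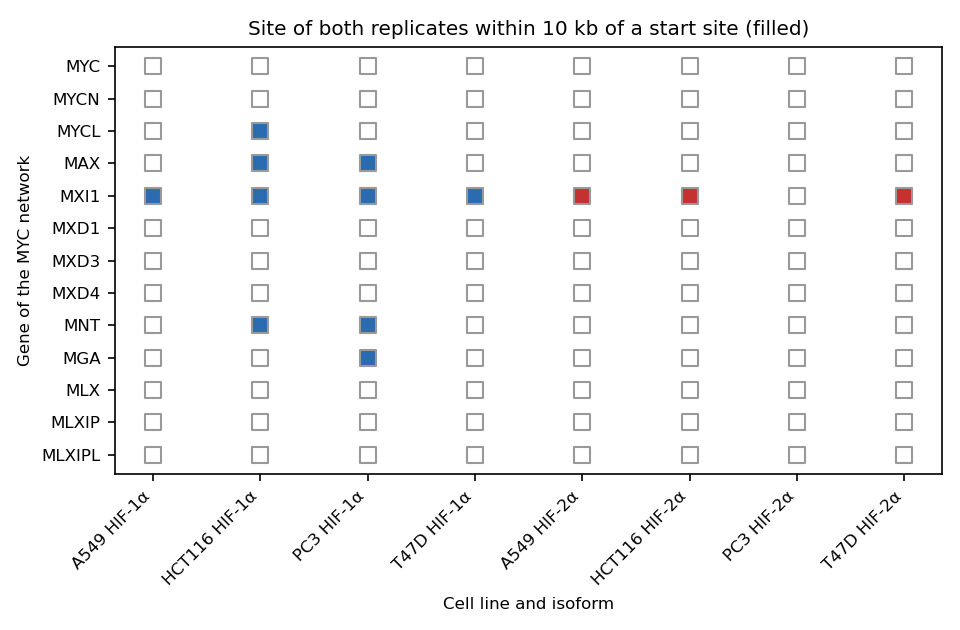
Genes of the MYC network (rows) with a site of both replicates within 10 kb of a start site (filled squares, blue for HIF-1α and red for HIF-2α) in each of the 8 groups (columns). The row of MXI1 is filled in 7 groups and that of MYC in none.

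The sites elsewhere in the genome whose pattern was most like that of the intron 2 site at 134.7 kb were found by the mean absolute difference in percentile over the 16 libraries. The nearest was on chromosome 12 near KRT8, an epithelial keratin gene, with a mean difference of 8.81 points, followed by a site near RIOK1, a kinase gene, with 9.23, and one near EDN1, the gene of the vasoconstrictor endothelin-1, with 10.3. Sites near ST8SIA6 and XAB2 followed at 12.9 and 13.1. The KRT8 and RIOK1 sites were each found in 6 libraries, all of them among the 7 that held the PVT1 site.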

How the data were processed

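ChIP-seq peak lists of 16 libraries (4 cell lines, 2 isoforms, 2 replicates) were used, with groups taken from the sample labels. The authors trimmed and aligned reads to GRCh37, removed duplicates and blacklisted regions, and called peaks with T-PIC and with MACS in control mode. Peaks found by both callers were then filtered by read count and overlap between replicates in the study. The lists used here carry MACS peak names numbered without gaps in all 16 libraries. The submitters' processing notes name Trim Galore 0.3.3, BWA 0.7.5a-r405, SAMtools 0.1.19, bedtools 2.17.0 and Picard 2.0.1. The version of MACS and the scale of the score deposited by the authors are not given in the sources used here. That score was used only for ranking. Peaks were merged at an overlap of at least 1 bp, and a site was placed at the median of its peak centres. Of all peaks, 29 were off chromosomes 1 to 22, X and Y and were not merged into sites.

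Isoform labels were exchanged within cell lines, or line labels within isoforms, in two-sided or one-sided exact permutation tests that used all relabellings. The 5 single-value tests, and separately the tests of 1421 sites, were adjusted by the Benjamini-Hochberg method at 0.05. Python 3.11.15, numpy 2.4.6, scipy 1.17.1 and matplotlib 3.10.9 were used, and the functions were tested on simulated data. Same-numbered replicates of a line were checked for shared deviations from their group means, and these did not pair the libraries.

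Named were all sites in both replicates of a group, sites over a start of MYC or PVT1, the genes at these sites, the 13 genes of a MYC network list, a list of 12 noncoding RNA genes, and the 5 sites most like the leading one. Single sites of the upstream and downstream noncoding genes were named through that list. The members and lists were chosen with earlier results of these data known. Alternatives comprised stricter or equal-length lists, other windows and overlaps, a replicate block, 1 value per line and isoform, and the omission of single libraries or lines.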

Additional observations from a re-analysis of the deposited data

How the results depend on the processing

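Scores at or above the median of all peaks gave isoform differences in share of 0.486 points in the window and 0.442 in PVT1, and equal-length lists gave 0.318 points, 0.875 peaks and 28.2 percentile points in the window, all past the threshold (adjusted p from 0.0347 to 0.0463, exact permutation). Without A549, the differences in number (−0.167) and best percentile (−3.53) changed sign. The variance of the share between lines did not pass without HCT116 (0.0181, adjusted p = 0.0772, exact permutation). Nor did the variance of the number of peaks, which is in another unit (1.27, adjusted p = 0.341, exact permutation). Replicated sites numbered 3 with equal-length lists or without A549, and 15 when 1 replicate sufficed. Equal-length lists left 0 libraries at the sites at 73.9 and 140.7 kb. No site of the series was called, instead of 155, among sites in at least 2 libraries (0; 471 at an unadjusted p under 0.05), by presence or absence (0; 321) or with the replicate block (0; 297), all by the exact permutation test.

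Leaving out 1 library gave shares of 0.107 to 0.184 points in the window and 0.161 to 0.220 in PVT1, 0.25 to 1.25 peaks, 6.03 to 27.4 percentile points, a variance of 0.0233 to 0.0383, 3 to 5 replicated sites and 94 to 295 called sites. The shares passed without PC3 HIF-2α replicate 1. The variance did not pass without A549 HIF-2α replicate 2, A549 HIF-2α replicate 3 or T47D HIF-1α replicate 2. Called sites moved most without A549 HIF-1α replicate 2 (295) or replicate 3 (94), PC3 HIF-1α replicate 1 (262), T47D HIF-1α replicate 1 (265) or replicate 2 (266). The causes were not tested.

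Same-numbered libraries of a line correlated at 0.0166 to 0.0576 in their deviations, so numbers were not treated as pairs. With the replicate block the share difference of 0.145 points had an exact permutation p of 0.0625 (adjusted p = 0.156), the PVT1 difference of 0.191 points had 0.0938, and no call of the 4 isoform tests changed; the variance between lines was not run with the block. Depth is unknown, and 30 peaks limit the precision of each share.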
